A study of Homo sapiens with 6 samples.

Results

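The 35 genes described here make sterols and fatty acids, control that synthesis, or carry sterol out of the cell, and they were picked by gene name from the 58870 rows of a count table. The samples are 3 RNA-seq libraries labelled GFP and 3 labelled T-MGM, all from the human melanoma line WM164, an established cell line. GFP is green fluorescent protein and serves as the control, and the comparison asks how cells that carry the tethered dimer differ from it in gene expression. T-MGM is a tethered MAFG-MITF dimer, in which the coding sequence of the melanocyte transcription factor MITF (its M isoform) is joined through a flexible linker to that of MAFG, a small MAF transcription factor. Per the study's methods the construct was delivered by lentivirus under the EF1α promoter with blasticidin selection, so the libraries come from selected populations of 1 cell line that carry an added transgene. No source used here says whether the libraries came from separate cultures, and the p-values below then measure only the spread between these libraries, which may be technical.

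Sterol and fatty acid synthesis share a regulator. The SREBP transcription factors, encoded by SREBF1 and SREBF2, are made as membrane proteins of the endoplasmic reticulum. SCAP escorts them to the Golgi for cleavage when sterol is scarce, and INSIG1 and INSIG2 hold SCAP back when sterol is plentiful. The released SREBP2 fragment mainly drives the enzymes from acetyl-CoA to cholesterol, and SREBP1 mainly those of fatty acid synthesis. The LXR receptors respond to oxysterols and turn on cholesterol efflux, MYLIP and SREBF1. In melanoma, SCD, which introduces a cis bond into saturated fatty acids, is known as a gene whose expression is tied to MITF.

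The libraries held 35057239, 38738065 and 36779168 counts for GFP and 47695573, 44577774 and 59250663 for T-MGM, so every T-MGM library was deeper than every GFP library. The floor of 3 counts lay between 0.0506 and 0.0856 CPM (counts scaled to library size), and this floor covers counting error only. Of the defining markers of the melanocyte lineage, SOX10, PMEL, MLANA, TYR and DCT were well expressed in all libraries and TYRP1 was near 0. DCT was 5.60-fold lower in T-MGM (11358 to 11601 against 1968 to 2144 normalized counts), MLANA 1.60-fold lower and TYR 1.27-fold lower, while PMEL and SOX10 were higher by 0.05 and 0.11 on the log2 scale, all past an adjusted p of 0.05. With offsets for transcript GC content and length, DCT, MLANA and TYR stayed lower. PMEL (-0.017, adjusted p = 0.436) and SOX10 (-0.025, adjusted p = 0.188) then did not pass. Keratinocyte and leukocyte markers were near 0. The endothelial markers PECAM1 (9.74 to 19.4 normalized counts in GFP, 13.3 to 23.7 in T-MGM) and VWF (4.80 to 21.7 and 10.9 to 30.2) did not pass (adjusted p = 0.658 and 0.373). Of 5 fibroblast markers, LUM (285 to 316 normalized counts in GFP, 497 to 550 in T-MGM), COL1A1 (19.2 to 31.4 and 56.6 to 60.5) and PDGFRB (2.28 to 16.2 and 14.6 to 42.8) were higher in T-MGM, DCN had 4.43 to 10.3 over all libraries (log2 fold change 0.11, adjusted p = 0.939), and COL1A2 had between 0 and 5 raw counts and no adjusted p. The part of these markers in the results below was not tested, and in bulk RNA more or fewer cells of a type cannot be told apart from more or less RNA per cell. The genes of the construct did not check the labels. MAFG gave a log2 fold change of -0.06 (adjusted p = 0.236) and MITF one of 0.08 (adjusted p = 4.80e-07). With the GC and length offsets MAFG was lower (-0.16, adjusted p = 0.000130) and MITF was at 0.19 (adjusted p = 1.15e-35). T-MGM therefore stands for "labelled T-MGM" throughout.

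Of the 35 genes, 34 received an adjusted p in a DESeq2 fit over the whole table. ABCG1, a sterol exporter, did not, with 2, 1 and 0 raw counts in the controls (GFP) and 0, 1 and 0 under T-MGM, all below the floor. Of the 34, 9 were higher in T-MGM (FDFT1, LSS, EBP, SCAP, INSIG2, FASN, FADS1, FADS2 and MYLIP), 10 were lower (HMGCS1, IDI1, FDPS, SQLE, CYP51A1, HSD17B7, SC5D, ACACA, ACLY and SCD) and 15 did not pass an adjusted p of 0.05. The split depended on the scale, with 3 higher and 14 lower on log2(TPM + 1), 7 and 12 with offsets for GC content and length, and 8 and 11 with total counts as the scaling. The share called was 55.9%, against 38.4% of all 19135 genes tested, of which 19.2% were higher and 19.2% lower. These genes are well expressed, with a median of 1611 normalized counts against 337 for all genes tested. Among genes with a mean of at least 1000 normalized counts the background was 68.0%, and 13 of the 19 members at that level were called. The changes were small. Only HSD17B7 exceeded 2-fold, where 4.63% of all genes did, and 18 of the 19 called genes changed by less than 1.5-fold. The median log2 fold change was -0.0033 for the members and -0.0027 for all genes tested, and the median absolute log2 fold change was 0.18 and 0.25. At a mean of at least 1000 normalized counts, the median absolute log2 fold change of all genes was 0.15, and 45 of 6577 exceeded 2-fold. The members were thus not less changed than all genes at that level. In 20 of the 34 genes (58.8%, against 46.8% of all genes tested) the normalized counts of all T-MGM libraries lay above those of every GFP library, or all lay below. Among all genes with a mean of at least 1000 normalized counts that share was 72.1%.

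**Figure D1:**
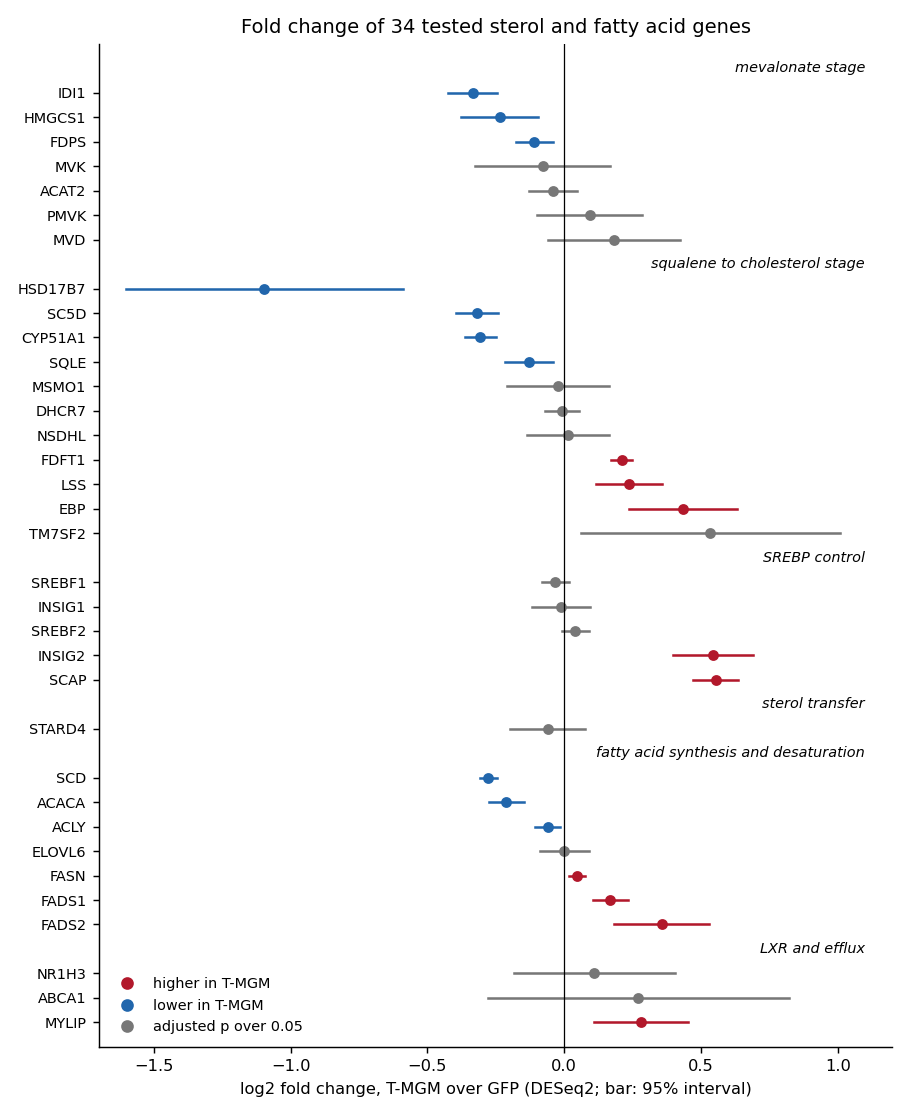
Log2 fold change of T-MGM over GFP on the x axis for the 34 genes tested, in 6 role lists, as the DESeq2 estimate (point) with its 95% interval (bar) over 3 libraries per group. Red genes were higher, blue lower, and grey ones had an adjusted p over 0.05. HSD17B7 sits alone at -1.10, while SCAP and INSIG2, at 0.55 and 0.54, are the highest of the called genes.

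The promoters of the members were read for short elements known for these regulators. RefSeq windows (GRCh38.p14, 250 bases before to 50 after a start) were matched for 30 members with 43 windows. ABCG1, ACAT2, FASN, FDFT1 and SQLE were not matched. Both strands were searched for a sterol regulatory element (TCACNCCAC) and a CCAAT box (CCAAT), to which the SREBP partner NF-Y binds. Forms of the M-box and E-box bound by MITF (TCATGTG and TCACGTG) were searched too. So was a part (TGCTGAC) of a MAF recognition element, printed below under the label MAF core. The CCAAT box stood in a window of 22 of the 30 members (73.3%), against 39.7% of the 27305 genes in the table. These background genes were not limited to expressed ones, so neither this share nor those below are matched to the members by expression level. It was present in 8 of the 9 matched members that were lower in T-MGM, 4 of the 7 that were higher and 10 of the 14 that did not pass. By window, 60.5% of the members' and 34.6% of all windows held it. The strict sterol regulatory element was found only in SREBF2 among the members (1.39% of all genes), TCATGTG only in ACACA (3.59%), TCACGTG in INSIG1, LSS and SC5D (4.49%), and TGCTGAC in DHCR7, INSIG2 and MVD (5.14%). The matches that lie before a start are printed below on the strand of the gene, to show which called and uncalled members carry letters of the regulators in the construct or of SREBP; capitals mark the matched letters, in either orientation.
SREBF2 sterol regulatory element, chr22:41832962-41832990 (+): tgacgcgccaTCACCCCACgcaccgcttc
SC5D E-box, chr11:121292630-121292656 (+): gcgcggcgccCACGTGAccgcggagag
INSIG1 E-box, chr7:155297812-155297839 (+): ccgggcaggcTCACGTGAtgcgggcccc
ACACA M-box, chr17:37299768-37299789 (-): gctttccctgTCATGTGctcct
INSIG2 MAF core, chr2:118088254-118088280 (+): cggctgcctgGTCAGCAaacaacagca
MVD MAF core, chr16:88663262-88663288 (-): gcggacctacGTCAGCAacccatcgtc
DHCR7 MAF core, chr11:71449115-71449141 (-): tgggtgtgggGTCAGCAgacaccttca
In GENCODE 44 the SC5D, INSIG2 and MVD stretches lie outside any annotated gene. The SREBF2 stretch lies in an exon of the opposite-strand transcript SREBF2-AS1, the INSIG1 stretch in an untranslated exon stretch of a longer INSIG1 transcript, and the ACACA and DHCR7 stretches in introns of those genes, before internal starts. The INSIG1 letters read as TCACGTG on both strands. Of these 7 genes, SC5D and ACACA were lower in T-MGM, INSIG2 was higher, and SREBF2, INSIG1, MVD and DHCR7 did not pass. The matches are letters in a window, and no binding was measured in these files.

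In the mevalonate stage, from acetyl-CoA to farnesyl diphosphate, 3 of 7 genes fell in T-MGM, none rose and 4 did not pass, with a median log2 fold change of -0.08. The share called was 42.9%, against 38.4% of all genes tested. IDI1 (chr10:1039152-1049119; positions here and below are GRCh38, from GENCODE 44), which isomerises isopentenyl diphosphate, had 2298, 2411 and 2532 normalized counts for GFP and 1914, 1823 and 2003 for T-MGM. Every T-MGM library lay below every GFP library. IDI1 was 1.26-fold lower (log2 fold change -0.33, SE 0.05, adjusted p = 2.49e-12). HMGCS1 (chr5:43287470-43313512), the synthase that makes HMG-CoA, had 748, 802 and 806 normalized counts with GFP and 692, 640.0 and 671 with T-MGM. The groups did not overlap, and HMGCS1 was 1.18-fold lower (log2 fold change -0.24, SE 0.07, adjusted p = 0.00360). With offsets for transcript GC content and length its log2 fold change was -0.10 and the call was lost (adjusted p = 0.310). FDPS (chr1:155308748-155320666), which makes farnesyl diphosphate, had 2949, 2981 and 2951 normalized counts in the controls (GFP) and 2723, 2704 and 2800.5 under T-MGM. These values did not overlap either, and the difference was 1.08-fold (log2 fold change -0.11, SE 0.03, adjusted p = 0.00556). The 226 expressed genes within 10 Mb of FDPS had a median log2 fold change of -0.16 (-0.19 with GC and length offsets). Their part in the result was not tested. The other 4 genes, ACAT2 (acetoacetyl-CoA thiolase), MVK and PMVK (the mevalonate kinases) and MVD (the decarboxylase), had log2 fold changes between -0.08 and 0.18, with 95% intervals from -0.33 to 0.42. ACAT2 did not overlap between the groups (1772 to 1844 against 1734 to 1768 normalized counts), and the other 3 did.

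In the stage from squalene to cholesterol, 4 of 11 genes fell, 3 rose and 4 did not pass, so the calls went in both directions. Called were 63.6%, against 38.4% of all genes tested and 68.0% of those with a mean of at least 1000 normalized counts. FDFT1 (chr8:11795573-11839395), squalene synthase, was the second most abundant member by mean TPM. It had 9728, 9854 and 10063 normalized counts for GFP and 11386, 11483 and 11417 for T-MGM. The T-MGM values were all higher, by 1.16-fold (log2 fold change 0.21, SE 0.02, adjusted p = 1.87e-25). On the TPM scale the difference had the same direction but did not pass (log2 fold change 0.07, adjusted p = 0.106 by limma). CYP51A1 (chr7:92084987-92134803), the lanosterol demethylase, had 4993, 5103 and 5053 normalized counts with GFP and 4042, 4005 and 4192 with T-MGM. The gap between the groups was larger than the spread within each, and CYP51A1 was 1.24-fold lower (log2 fold change -0.31, SE 0.03, adjusted p = 2.18e-25). Its span overlaps AKAP9 on the opposite strand, and how the counting split such reads is uncertain, as also for ACAT2 with TCP1, MVK with MMAB and NR1H3 with ACP2. TM7SF2 overlaps VPS51 on its own strand, and CYP51A1 also overlaps genes there that are known only by an identifier. SC5D (chr11:121292681-121313410), the sterol desaturase late in the pathway whose E-box is printed above, had 2637, 2580.1 and 2597 normalized counts in the controls (GFP) and 2165, 2030.3 and 2069 under T-MGM. The groups did not overlap, and SC5D was 1.25-fold lower (log2 fold change -0.32, SE 0.04, adjusted p = 6.39e-15).

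HSD17B7 (chr1:162790702-162812823), a ketosteroid reductase of the demethylation steps, had 115, 80.1 and 82.2 normalized counts for GFP and 51.1, 42.9 and 36.2 for T-MGM. It was the only member past 2-fold, at 2.14-fold lower (log2 fold change -1.10, SE 0.26, 95% interval -1.60 to -0.59, adjusted p = 0.000103). It was also among the least abundant members, and GFP replicate 1 stood above the other two GFP libraries. Without GFP replicate 1 the log2 fold change was -0.91 (adjusted p = 0.0104) and without T-MGM replicate 3 it was -0.97 (adjusted p = 0.00409), so the direction held and the 2-fold limit was not reached. On log2(TPM + 1) it was -0.49 (adjusted p = 0.0244 by limma, and 0.112 with no filter on low values), a scale that shrinks the change of so low a gene, and on log2(TPM + 0.1) it was -0.94 (adjusted p = 0.0363). A near-identical copy, HSD17B7P2, held between 1 and 9 raw counts per library, and reads that fit both cannot be placed by a count of unique alignments.

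The remaining genes of this stage were SQLE, LSS, EBP, TM7SF2, MSMO1, NSDHL and DHCR7. SQLE, squalene epoxidase, fell by 0.13 on the log2 scale (adjusted p = 0.0138), a difference that did not pass without GFP replicate 1 (adjusted p = 0.121), T-MGM replicate 1 (0.135) or T-MGM replicate 3 (0.0555). EBP, the sterol isomerase, had 320.2, 368 and 331 normalized counts with GFP and 479, 467 and 434 with T-MGM. It was 1.35-fold higher (adjusted p = 6.99e-05), and no T-MGM library reached down to the GFP range. LSS, lanosterol synthase, was 1.18-fold higher (adjusted p = 0.000436) in counts, but on the TPM scale its log2 fold change was -0.07 and with GC and length offsets it was 0.13 with an adjusted p of 0.0887. TM7SF2, a sterol reductase, gave 51.6, 62.8 and 60.5 normalized counts in the controls (GFP) and 94.9, 88.8 and 70.8 under T-MGM. These did not overlap, yet the estimate of 0.53 (95% interval 0.06 to 1.01) did not pass (adjusted p = 0.0672). MSMO1, NSDHL and DHCR7 overlapped between the groups, with log2 fold changes from -0.02 to 0.01. For DHCR7, the last reductase of the pathway, the 95% interval of -0.07 to 0.05 bounds the difference closely in this scaling, and with GC and length offsets it was lower (log2 fold change -0.12, adjusted p = 0.000465).

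**Figure D2:**
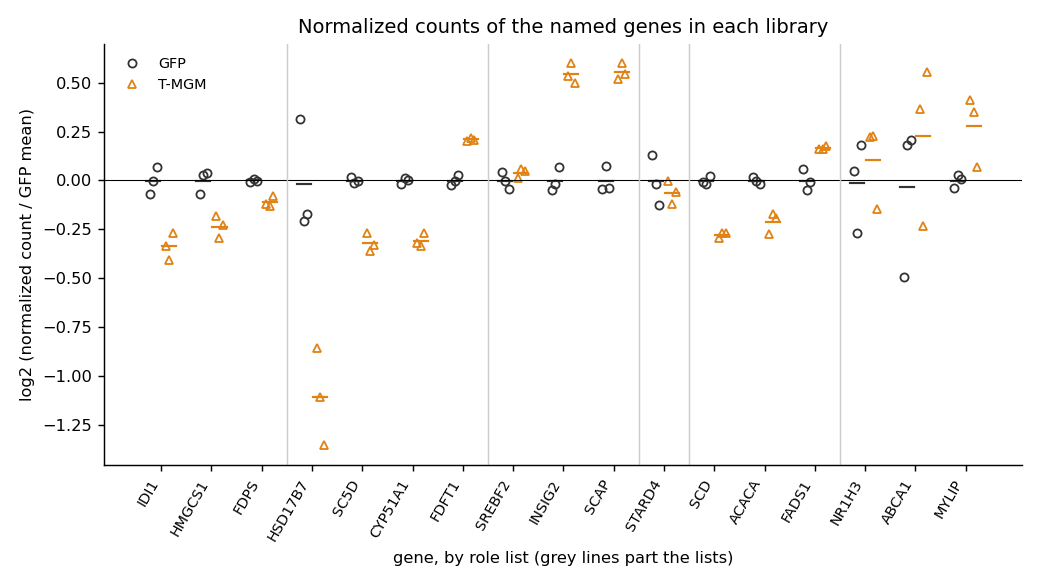
Log2 of the normalized count over the GFP mean of the same gene (y axis) in each library for 17 genes (x axis), with circles for GFP, triangles for T-MGM and a bar at the mean of the 3 log2 values. SCD, CYP51A1, FDFT1 and SCAP show tight, separate groups, whereas NR1H3, ABCA1 and STARD4 overlap.

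Among the 5 genes that control SREBP, SCAP and INSIG2 rose and both SREBP genes and INSIG1 did not pass. The share called was 40.0%, against 38.4% of all genes tested. SCAP (chr3:47413681-47477126), the escort protein, had 1817, 1972 and 1824 normalized counts for GFP and 2677, 2835 and 2732 for T-MGM. All T-MGM libraries were higher, by 1.47-fold (log2 fold change 0.55, SE 0.04, adjusted p = 1.67e-37), the highest estimate among the called members. The 170 expressed genes within 10 Mb of SCAP had a median log2 fold change of 0.29, and the part of that neighbourhood in the result was not tested. INSIG2 (chr2:118088452-118110997), which retains SCAP, had 537, 549 and 584 normalized counts with GFP and 806, 844 and 785 with T-MGM. The groups were separate, and INSIG2 was 1.46-fold higher (log2 fold change 0.54, SE 0.07, adjusted p = 3.79e-12), while its 64 neighbours had a median of -0.23. Both genes kept direction and call under every one of the 17 alternatives tried, with log2 fold changes of 0.41 to 0.59 for SCAP and 0.44 to 0.72 for INSIG2.

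SREBF2 (chr22:41833105-41907306) had 7316, 7071 and 6894 normalized counts in the controls (GFP) and 7147, 7387 and 7345 under T-MGM. The ranges overlapped and the log2 fold change of 0.04 (SE 0.03, 95% interval -0.01 to 0.09) did not pass (adjusted p = 0.216). Its sign depended on the scaling, at -0.01 with total counts, -0.15 on the TPM scale (adjusted p = 0.0366 by limma) and -0.06 with GC and length offsets (adjusted p = 0.0266). SREBF1 gave a log2 fold change of -0.03 (95% interval -0.08 to 0.02, adjusted p = 0.340) and was lower with total counts (-0.09, adjusted p = 0.00246), on the TPM scale (-0.16, adjusted p = 0.0271 by limma) and with the offsets (-0.17, adjusted p = 3.32e-13). INSIG1, itself a well-known SREBP target, had 1428 to 1495 normalized counts in GFP and 1347 to 1529 in T-MGM, and its log2 fold change was -0.01 (95% interval -0.12 to 0.09, adjusted p = 0.894). STARD4 (chr5:111496033-111512590), a cytosolic sterol carrier, had 1020.5, 921 and 853 normalized counts for GFP and 931, 857 and 893 for T-MGM. The T-MGM values lay inside the GFP range, and the log2 fold change of -0.06 (SE 0.07) did not pass (adjusted p = 0.572).

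Of the 7 genes of fatty acid synthesis and desaturation, 3 fell, 3 rose and ELOVL6, an elongase, did not pass (log2 fold change 0.00, 95% interval -0.09 to 0.09, adjusted p = 0.994). Called were 85.7%, against 38.4% of all genes tested and 68.0% of those with a mean of at least 1000 normalized counts. SCD (chr10:100347233-100364826) had 20176, 20094 and 20663 normalized counts with GFP and 16589, 16845 and 16855 with T-MGM. All T-MGM libraries lay well below GFP, and SCD was 1.21-fold lower (log2 fold change -0.28, SE 0.02, adjusted p = 1.07e-61). ACACA (chr17:37084992-37406836), acetyl-CoA carboxylase, had 4063, 4005 and 3957 normalized counts in the controls (GFP) and 3313, 3562 and 3506 under T-MGM. It was lower in each T-MGM library, by 1.16-fold (log2 fold change -0.21, SE 0.03, adjusted p = 9.44e-10). FADS1 (chr11:61799627-61829318), a desaturase of polyunsaturated fatty acids, had 3732, 3463 and 3559 normalized counts for GFP and 4015, 4012 and 4052 for T-MGM. It was 1.12-fold higher in counts (log2 fold change 0.17, SE 0.03, adjusted p = 8.71e-07), with no overlap, but lower on the TPM scale (log2 fold change -0.18, adjusted p = 0.0266 by limma).

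FADS2, the desaturase beside FADS1 on the opposite strand, was 1.28-fold higher (adjusted p = 0.000264), with 423 to 482 normalized counts in GFP and 541 to 605 in T-MGM. It did not pass on the TPM scale (log2 fold change 0.22, adjusted p = 0.156 by limma). The annotated spans of FADS1 and FADS2 overlap, and FADS2 also overlaps FEN1 on its own strand. Without certainty about the strand setting of the counting, the reads of FADS1 and FADS2 cannot be fully told apart. The overlap with FEN1 does not depend on that setting. The 219 expressed genes within 10 Mb of FADS2 had a median log2 fold change of 0.25, and their part in both results was not tested. FASN, fatty acid synthase, was the most abundant member and showed the smallest difference of those called. Its values of 45894, 44456 and 44732 with GFP and 45689.5, 47379.6 and 46435 with T-MGM overlapped. The log2 fold change of 0.05 passed (SE 0.02, adjusted p = 0.00904), but it was -0.01 with total counts, -0.06 on the TPM scale and -0.11 with GC and length offsets (adjusted p = 2.61e-15), and the call was lost without GFP replicate 2 (adjusted p = 0.0837) or T-MGM replicate 2 (0.0503). ACLY, which makes cytosolic acetyl-CoA from citrate, fell by 0.06 on the log2 scale (adjusted p = 0.0317) and did not pass without GFP replicate 1 (adjusted p = 0.143), GFP replicate 2 (0.138), T-MGM replicate 1 (0.139) or T-MGM replicate 2 (0.104).

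In the LXR and efflux list, 1 of the 3 genes tested rose (33.3% called, against 38.4% of all genes tested). MYLIP (chr6:16129086-16148248), the ubiquitin ligase that LXR induces to limit lipoprotein uptake, had 590.0, 618 and 608 normalized counts in the controls (GFP) and 805, 773 and 635 under T-MGM. All T-MGM values were higher, T-MGM replicate 3 only by a little, and MYLIP was 1.22-fold higher (log2 fold change 0.28, SE 0.09, adjusted p = 0.00429). Without T-MGM replicate 1 it did not pass (log2 fold change 0.21, adjusted p = 0.0777), nor on the TPM scale (0.10, adjusted p = 0.415 by limma). ABCA1 (chr9:104781006-104928155), the main cholesterol exporter, had 40.8, 65.0 and 66.2 normalized counts for GFP and 73.9, 48.8 and 84.1 for T-MGM. The groups overlapped, and at this depth the 95% interval of -0.28 to 0.82 around a log2 fold change of 0.27 (SE 0.28, adjusted p = 0.510) leaves a wide range. NR1H3 (chr11:47248300-47269033), which encodes LXRα, had 219, 176 and 241 normalized counts with GFP and 248, 249 and 192 with T-MGM. These overlapped too (log2 fold change 0.11, SE 0.15, adjusted p = 0.637).

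Levels per length, in the TPM values the authors deposited, ranged over orders of magnitude among the members. FASN stood first at a mean of 276 ± 3.48 TPM in GFP and 266 ± 9.70 in T-MGM (SD, n = 3). FDFT1 followed at 115 ± 3.39 and 121 ± 2.03, then SREBF1 at 87.2 ± 5.35 and 77.9 ± 0.976, SCD at 77.6 ± 1.36 and 57.8 ± 0.756, and FDPS at 62.6 ± 0.690 and 54.0 ± 0.953. The first 5 genes were the only members with a mean of at least 50 TPM, and 33 of the 35 had at least 1 TPM. Both exporters were at the bottom, with 0.110 ± 0.0265 and 0.117 ± 0.0321 TPM for ABCA1. SREBF1 exceeded SREBF2 (32.1 ± 1.08 in GFP and 28.9 ± 1.3 in T-MGM), and INSIG1 exceeded INSIG2 (11.8 ± 0.326 against 4.0 ± 0.110 TPM in GFP, 11.0 ± 0.820 against 5.80 ± 0.663 in T-MGM). On this scale 25 of the 34 tested members had a lower mean in T-MGM, and 3 genes called higher in counts (LSS, FASN and FADS1) were among them. The TPM scale itself was shifted, with a median log2 fold change of -0.13 over expressed genes against -0.01 in the normalized counts.

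**Figure D3:**
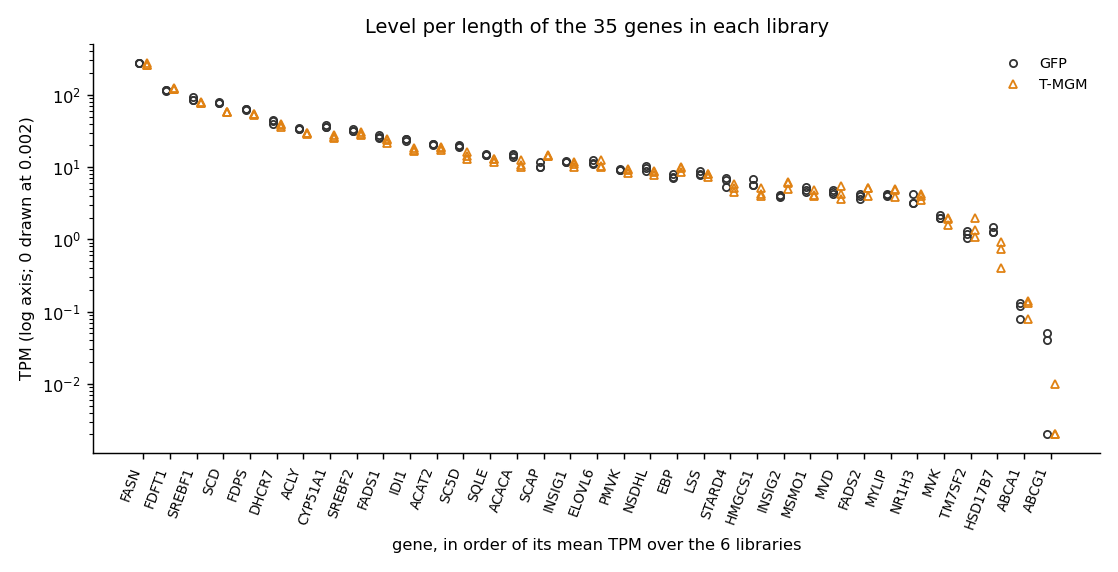
TPM on a log axis (y) for the 35 genes in order of their mean over the 6 libraries (x), with circles for GFP and triangles for T-MGM, 3 each. FASN leads at a mean of 271 TPM, 33 of the 35 genes have at least 1 TPM, and ABCA1 and ABCG1 fall at 0.113 and 0.0167.

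The called members also differed in base composition, which the choice of members did not use. The median transcript GC content was 44.1% for the 10 that were lower, 54.0% for the 9 that were higher and 55.4% for those that did not pass. Over 12611 expressed genes the log2 fold change rose with GC content (Spearman rho 0.376, across genes, so not over independent replicates), with a median of -0.16 in the lowest and 0.15 in the highest GC decile. Over the 34 members rho was 0.455, given as a description since these genes share libraries and depth. With offsets for GC content and length, the log2 fold changes were smaller for IDI1 (-0.22), CYP51A1 (-0.19) and SC5D (-0.16), all still called, and nearly the same for SCD (-0.25) and ACACA (-0.21). That of FDPS was larger (-0.21). HMGCS1, SQLE and LSS lost their calls, and FASN turned from higher to lower. FADS2 kept its call with the offsets alone but lost it where the replicate block was added to them.

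**Figure D4:**
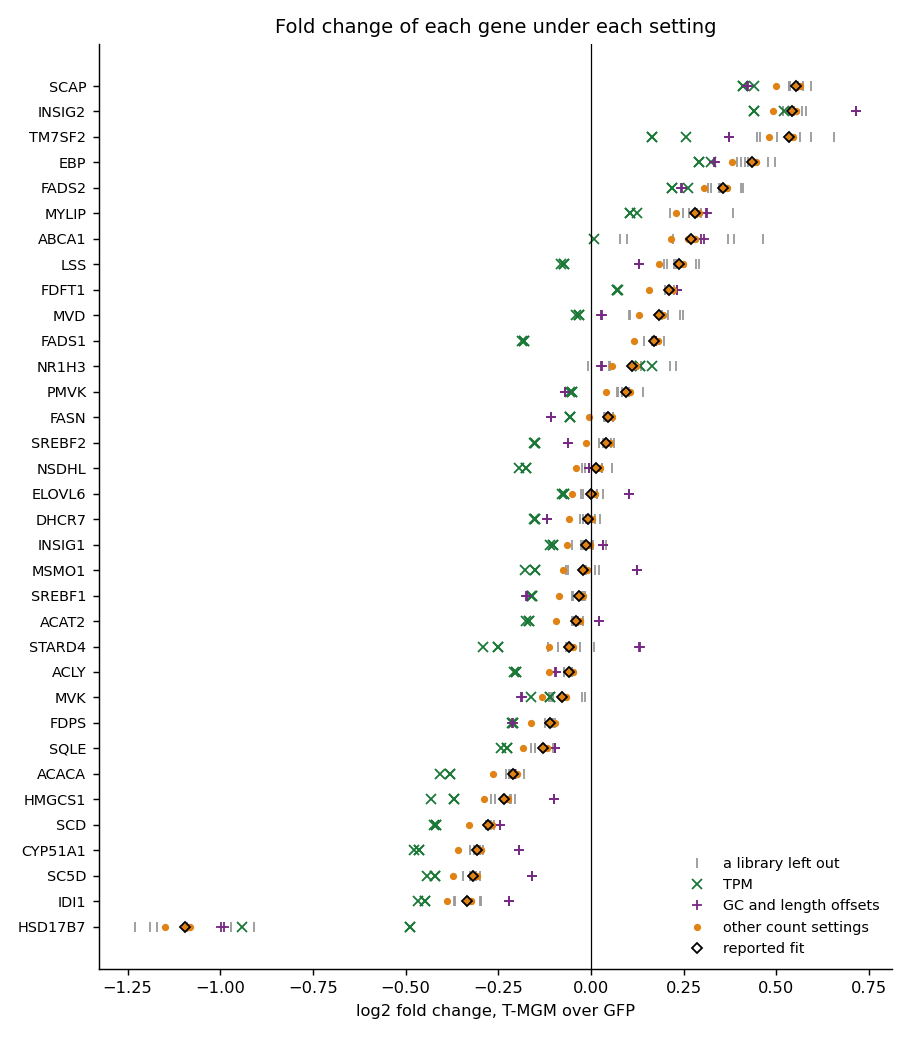
Log2 fold change of T-MGM over GFP (x axis) for each of the 34 genes under the DESeq2 fit reported here (diamond), with a library left out (tick), on TPM (cross), with GC and length offsets (plus) and under the other count settings (dot). The TPM values lie to the left for most genes, and LSS, FADS1 and FASN cross 0 while SCAP, INSIG2, IDI1, CYP51A1, SC5D and SCD do not.

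Further genes of the same pathways, 70 listed from general knowledge, were read from the same fit. All 70 were tested, and 27 were higher, 24 lower and 19 did not pass, so 72.9% were called against 38.4% of all genes. Their median was 1824 normalized counts. Among all genes with a mean of at least 1000 normalized counts 68.0% were called, and 38 of the 46 listed genes at that level were. Past 2-fold were 2 of the 70, where 4.63% of all genes were. In the isoprenoid branch, which uses farnesyl diphosphate for protein prenylation, ubiquinone and dolichol, 7 of 13 fell, 1 rose and 5 did not pass (61.5% called). The median log2 fold change was -0.28, and -0.11 with GC and length offsets. ICMT, which methylates prenylated proteins, had 11765, 11512 and 11698 normalized counts in the controls (GFP) and 9262, 9518 and 9489.9 under T-MGM (log2 fold change -0.31, SE 0.02, adjusted p = 3.86e-52). RABGGTB, the beta subunit of the enzyme that prenylates Rab proteins, was 1.33-fold lower (log2 fold change -0.42, adjusted p = 6.85e-30, and -0.26 with the offsets). The 1 gene that rose was RABGGTA, its alpha subunit, named here after its value was seen (log2 fold change 0.23). In both ICMT and RABGGTB the T-MGM libraries lay below every GFP library. The expressed genes within 10 Mb had medians of -0.26 for ICMT and -0.26 for RABGGTB, and their part was not tested.

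Among 13 other genes of sterol synthesis and SREBP processing, 10 rose, 2 fell and 1 did not pass, with a median log2 fold change of 0.21. Of these, 11 had a mean of at least 1000 normalized counts, and all 11 were called. At that level 68.0% of all genes were called, with 1951 of 6577 higher and 2522 lower. RNF145, a ubiquitin ligase of the endoplasmic reticulum known to act on SCAP, had 6944, 7308 and 7231 normalized counts for GFP and 9165, 9160.4 and 9289 for T-MGM. It was 1.29-fold higher (log2 fold change 0.36, SE 0.02, adjusted p = 9.84e-55), and the groups were well apart. LBR, a nuclear envelope protein with sterol reductase activity, was 1.27-fold lower (log2 fold change -0.34, SE 0.03, adjusted p = 6.77e-22), with 3279 to 3292 normalized counts in GFP and 2537 to 2638 in T-MGM. With GC and length offsets LBR was at -0.19 and RNF145 at 0.41. The expressed genes within 10 Mb had a median of -0.22 for LBR and -0.03 for RNF145, and their part was not tested. Uptake, transport and storage was split, with 5 of 13 higher, 4 lower and 4 not past (69.2% called, against 38.4% of all genes tested). NPC2, which moves cholesterol out of the lysosome, was 1.54-fold higher (1869 to 2036 against 2957 to 3090.5 normalized counts, adjusted p = 4.92e-51). SOAT1, which esterifies cholesterol for storage, was 1.34-fold lower (3967 to 4191 against 2977 to 3127, adjusted p = 5.78e-36). With the offsets the log2 fold change of SOAT1 went from -0.42 to -0.30 and that of NPC2 from 0.62 to 0.64. Their neighbours within 10 Mb had medians of -0.14 and 0.14, and the part of these was not tested. GRAMD1B, a sterol transfer protein, had 6.0, 9.74 and 1.14 normalized counts with GFP and 27.4, 21.5 and 31.0 with T-MGM. Its log2 fold change was 2.24 (SE 0.60, adjusted p = 0.000858), from few counts, and it ranged from 1.75 to 2.92 with a library left out.

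In other fatty acid synthesis and activation, 7 of 24 rose, 9 fell and 8 did not pass. Called were 66.7%, against 38.4% of all genes tested and 68.0% of those with a mean of at least 1000 normalized counts. ACSL3, which activates long-chain fatty acids with coenzyme A, had the highest counts of the named genes in this list, with 32624, 33179 and 32836 normalized counts in the controls (GFP) and 22260.0, 22262 and 22278 under T-MGM. It was 1.48-fold lower (log2 fold change -0.56, SE 0.01). With GC and length offsets it was at -0.40, and the expressed genes within 10 Mb had a median of -0.17. Their part was not tested. HSD17B12, the ketoacyl reductase of the elongation cycle, was 1.48-fold higher (1912 to 2046 against 2852 to 3000.1 normalized counts, adjusted p = 4.12e-44). Its log2 fold change of 0.57 was 0.72 with the offsets, and its neighbours had a median of 0.19, whose part was not tested. ELOVL4, which elongates very long chains, had 24.0, 18.4 and 14.8 normalized counts for GFP and 75.7, 81.0 and 70.8 for T-MGM, and was 3.98-fold higher (log2 fold change 1.99, SE 0.32, adjusted p = 5.65e-09). Its T-MGM libraries were all above the GFP range, at a low level (0.130 and 0.470 TPM). Among 7 other LXR partners and targets, 4 rose, 2 fell and 1 did not pass (85.7% called, against 38.4% of all genes tested). RXRG, a partner receptor, was 1.19-fold lower (4151 to 4218 against 3462 to 3630.0, adjusted p = 5.3e-15).

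**Figure D5:**
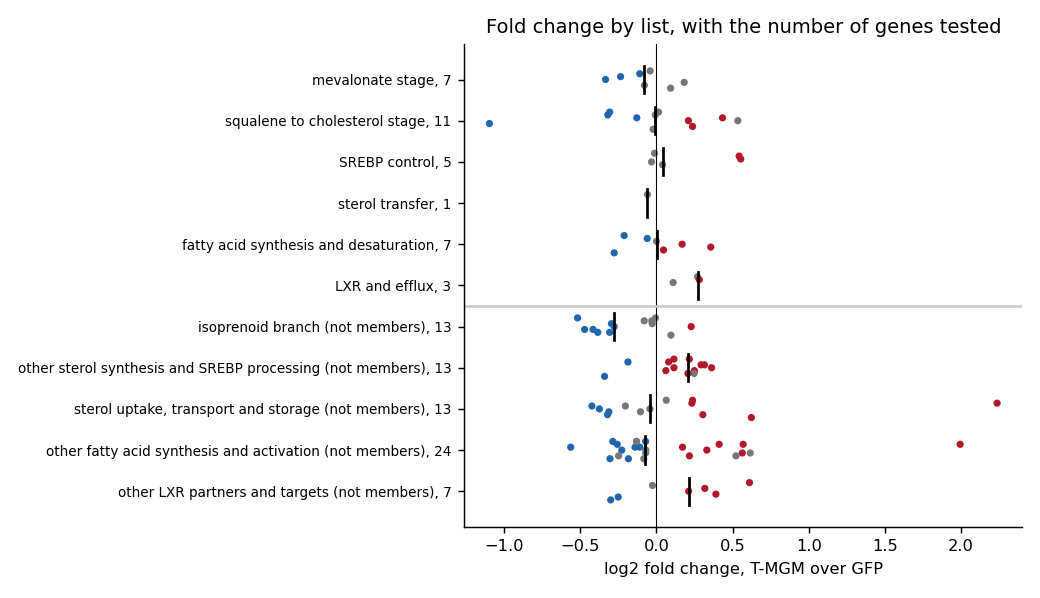
Log2 fold change of T-MGM over GFP (x axis) for each gene tested in the 6 role lists of members (above the grey line) and the 5 lists of other pathway genes (below it), with a black bar at each median. Red genes were higher, blue lower and grey not past an adjusted p of 0.05. The isoprenoid branch has its median at -0.28 and the other sterol synthesis and SREBP processing genes at 0.21, while GRAMD1B and ELOVL4 stand at the right.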

How the data were processed

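RNA-seq of 6 WM164 libraries (3 GFP, 3 T-MGM) was used. Per the labels and the study's methods, the authors trimmed reads with cutadapt 1.8.1, aligned them to GRCh38 with STAR 2.7.7a and counted unique alignments per gene with featureCounts. The deposited raw counts per gene were tested. The TPM values, which the authors made with RSEM 1.3.0, were deposited separately and served for levels and for alternatives. The kits named by the labels (not stranded) and by the methods (stranded) differ, so counts of overlapping genes are uncertain. Positions are from GENCODE 44, which matched 99.4% of the identifiers; the annotation release used for counting is not given in the sources used here.

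All 58870 rows were fitted by group with DESeq2 1.42.0 in R 4.3.3 (median-of-ratios size factors, 2-sided Wald test, no shrinkage, Benjamini-Hochberg adjustment over all genes with an adjusted p, independent filtering at 0.05). Normalized counts are counts over size factors. A gene was called at an adjusted p of at most 0.05. Depth ran from 35057239 to 59250663 counts per library. Alternatives used edgeR 4.0.16, limma 3.58.1 on log2(TPM + 1) and log2(TPM + 0.1) with a minimum of 0.5 TPM in 3 libraries, other scalings and filters, and offsets by lowess (span 0.3) for GC content and length. The DESeq2 fit by group, edgeR and limma (there on log2(CPM + 1)) were tried on simulated counts. The other scalings and filters, the offsets and the replicate block were not.

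The members and lists were chosen with earlier results of these data known. Full values are given for members past 2-fold and for the 3 with the largest absolute Wald statistic in each role list. Among other pathway genes, those past 2-fold and the 2 with the largest statistic in each list were to be named, some with fewer values. A gene that this rule names is not reported here. Neighbours are genes with an average of at least 50 normalized counts.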

Additional observations from a re-analysis of the deposited data

How the results depend on the processing

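Over 17 alternatives, 8 of the 19 called members kept their call and direction throughout (IDI1, FDPS, CYP51A1, SC5D, SCAP, INSIG2, ACACA and SCD), 10 lost the call in at least 1 and 3 changed sign in at least 1 (LSS, FASN and FADS1). The libraries' own numbers did not pair them: the correlations of same-numbered deviations from the group means were -0.01, -0.06 and 0.03 over 12654 genes, and not every library correlated best with its own number. With the replicate block, 9 members were higher and 8 lower, against 9 and 10 without it, and 3022 genes of all were higher and 3077 lower. The calls of SQLE (adjusted p = 0.0827) and ACLY (0.135) were lost.

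On TPM (log2(TPM + 1), log2(TPM + 0.1), and log2(TPM + 1) with no filter, in that order) the members higher were 3, 3 and 2, those lower 14, 14 and 8, and all genes higher were 1154, 1147 and 937, so that 20.9%, 20.8% and 21.8% of calls were higher, against 3675 higher and 3675 lower (an even split) as reported and 38.7% with total counts. FDFT1, FADS2 and MYLIP lost their calls in all 3 of these fits, and HMGCS1 (adjusted p = 0.0907), HSD17B7 (0.112) and EBP (0.0703) in the one with no filter. Genes over 2-fold were 133, 369 and 126 against 885. The pseudocount shrinks the changes of low genes, and the TPM medians lay at -0.13, -0.15 and -0.13. No member was over 2-fold (0) in the 3 TPM fits or with GC and length offsets, with or without the block; leaving out 1 library gave 0 to 1.

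These signs changed, with log2 fold changes in the same order on TPM: NSDHL -0.18, -0.19 and -0.18; SREBF2 -0.15, -0.15 and -0.15; FASN -0.057, -0.057 and -0.057; ELOVL6 -0.072, -0.078 and -0.072; PMVK -0.053, -0.058 and -0.053; MVD -0.032, -0.042 and -0.032; LSS -0.073, -0.081 and -0.073; FADS1 -0.18, -0.19 and -0.18. With total counts they were NSDHL -0.040, SREBF2 -0.013, FASN -0.0068 and ELOVL6 -0.053. With offsets for GC and length, without and then with the replicate block, they were NSDHL -0.0048 and -0.0043, SREBF2 -0.063 and -0.063, FASN -0.11 and -0.11, PMVK -0.070 and -0.070, ACAT2 0.022 and 0.022, MSMO1 0.12 and 0.12, INSIG1 0.031 and 0.032, and STARD4 0.13 and 0.13. DHCR7 was 0.0036 with edgeR and 0.0036 with TMM factors, and ELOVL6 was -0.00015 with a minimum of 10 counts. With a library left out the ranges were DHCR7 -0.029 to 0.024, NSDHL -0.025 to 0.056, ELOVL6 -0.028 to 0.032, MSMO1 -0.068 to 0.020, INSIG1 -0.052 to 0.039, STARD4 -0.12 to 0.0093 and NR1H3 -0.0091 to 0.23. The cause was not tested. Depth limits ABCG1, ABCA1, HSD17B7 and TM7SF2 most.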
